A study of Homo sapiens with 23 samples.

Results

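Long noncoding RNA genes that carry small nucleolar RNAs (snoRNAs), the snoRNA host lncRNA genes, were followed in HCT116 cells that lack 1 or more argonaute (AGO) proteins. The members are the genes whose GENCODE symbol is SNHG followed by a number, together with *GAS5*, *ZFAS1*, *DANCR* and *EPB41L4A-AS1*. The rule found 32 genes among the 57875 listed, and 30 of them passed edgeR's filter on low counts, which left 22842 genes for testing. *SNHG18* and *SNHG27* were not tested, since neither had more than 1 raw count in any sample. The 32 genes lie on 15 chromosomes.

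A snoRNA host gene is transcribed by RNA polymerase II and spliced, and the snoRNAs are trimmed out of its excised introns. C/D box snoRNAs guide 2′-O-methylation and H/ACA box snoRNAs guide pseudouridylation of ribosomal RNA, while small Cajal body RNAs guide the same modifications on spliceosomal RNAs. The spliced exons of many hosts hold no long reading frame, and several of these RNAs, *GAS5* among them, are known targets of nonsense-mediated decay. Several hosts begin with a terminal oligopyrimidine tract, the start shared by mRNAs of ribosomal proteins and translation factors.

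HCT116 is a human colorectal carcinoma cell line. RNAseq was carried out on wild-type cells and on *AGO1*, *AGO2*, *AGO1/2* (double) and *AGO1/2/3* (triple) knockout cells, with 3 biological replicates per line and 15 samples in all. The knockout lines were made from HCT116 by CRISPR editing and carry no other allele or treatment in the labels, and AGO proteins load microRNAs and lower the level or translation of their targets. Each genotype is a single line, so that genotype and line cannot be told apart. By the paper, growth was slower than in the wild type without AGO2 and in the double knockout, and slowest in the triple knockout. The part of growth in the results was not tested. The headers of *AGO2* knockout samples hold the word "quasi", which the others lack. Whether this names another quantification mode is not stated, and the difference coincides with that genotype.

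Total counts ranged from 27709971 to 45271146 per sample. *AGO1* RNA had 3578 to 4861 normalized counts in wild-type samples and 952 to 1309 in the lines that lack it, and *AGO3* fell in the triple knockout (log2 fold change -1.12). *AGO2* RNA was lower in *AGO2* knockout cells (log2 fold change -0.51), not called in the double knockout (-0.26) and higher in the triple knockout (0.40), and the RNA of an edited gene does not show whether its protein is made. Of 7 epithelial markers, *EPCAM*, *CDH1* and *CDX2* were lower and *KRT8* was higher in the triple knockout, and the summed normalized count of the list was 57081 to 63951 in wild-type and 54284 to 70492 in triple knockout samples. *VIL1*, a marker of the list, was near 0 in these cells, with 4.49 ± 1.63 normalized counts (SD, n = 3) in the wild type. None of 5 tested markers of leukocytes, endothelium and fibroblasts was called in the triple knockout, and *CD3E* and *ALB* were at or near 0. The part of these differences in the results on the host genes was not tested.

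Of the 30 host genes tested, 24 were lower in *AGO1/2/3* knockout cells than in wild-type cells and 0 were higher, at an adjusted p of 0.05 or less by the quasi-likelihood test of edgeR, adjusted by the Benjamini-Hochberg method. Among all 22842 genes tested, 19.8% were called lower and 20.3% higher in the same comparison. The double knockout had 10 host genes lower (background 8.35%) and 0 higher (background 8.37%). *AGO1* knockout cells had 3 higher (background 3.17%) and 0 lower (background 5.5%), and *AGO2* knockout cells had 2 higher (background 8.55%) and 1 lower (background 10.8%). With total counts in place of TMM normalization, the 2 calls higher in *AGO2* knockout cells were lost (background 3.21%). All 4 comparisons use the same wild-type samples, and wild-type replicate 2 stood farthest above the other wild-type replicates, as a ratio to the higher of them, for *ZFAS1*, *SNHG32*, *GAS5*, *EPB41L4A-AS1*, *SNHG5*, *SNHG22* and *SNHG8*. Without it the same 24 host genes were lower in the triple knockout (background 19.3%), 6 were lower in the double knockout (background 7.72%) and 0 were higher in *AGO2* knockout cells, where the share of all genes called higher also went from 8.55% to 2.14%.

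The median log2 fold change of the 30 host genes was -0.88 in the triple and -0.23 in the double knockout, 0.16 in *AGO2* knockout cells and 0.10 in *AGO1* knockout cells. Over all genes tested the medians in the same order were -0.01, 0.01, -0.02 and -0.01, and over the 4815 lncRNA genes tested they were -0.13, -0.01, -0.15 and 0.05. Of those lncRNA genes, 17.2% were called lower and 7.27% higher in the triple knockout. Neither set was matched to the host genes by count level, on which the power to call a change depends. As a share of all counts, the host genes took 0.246% to 0.308% in wild-type samples, 0.235% to 0.253% in *AGO1* knockout, 0.234% to 0.256% in *AGO2* knockout, 0.177% to 0.201% in double knockout and 0.114% to 0.117% in triple knockout samples. The triple knockout samples were the lowest of the 15 by this share, and fewer molecules per cell cannot be told apart from a change in the mixture of cells in bulk RNA. Total counts in place of TMM moved the median of all genes in the triple knockout to -0.15 and that of the host genes to -1.02.

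**Figure D1:**
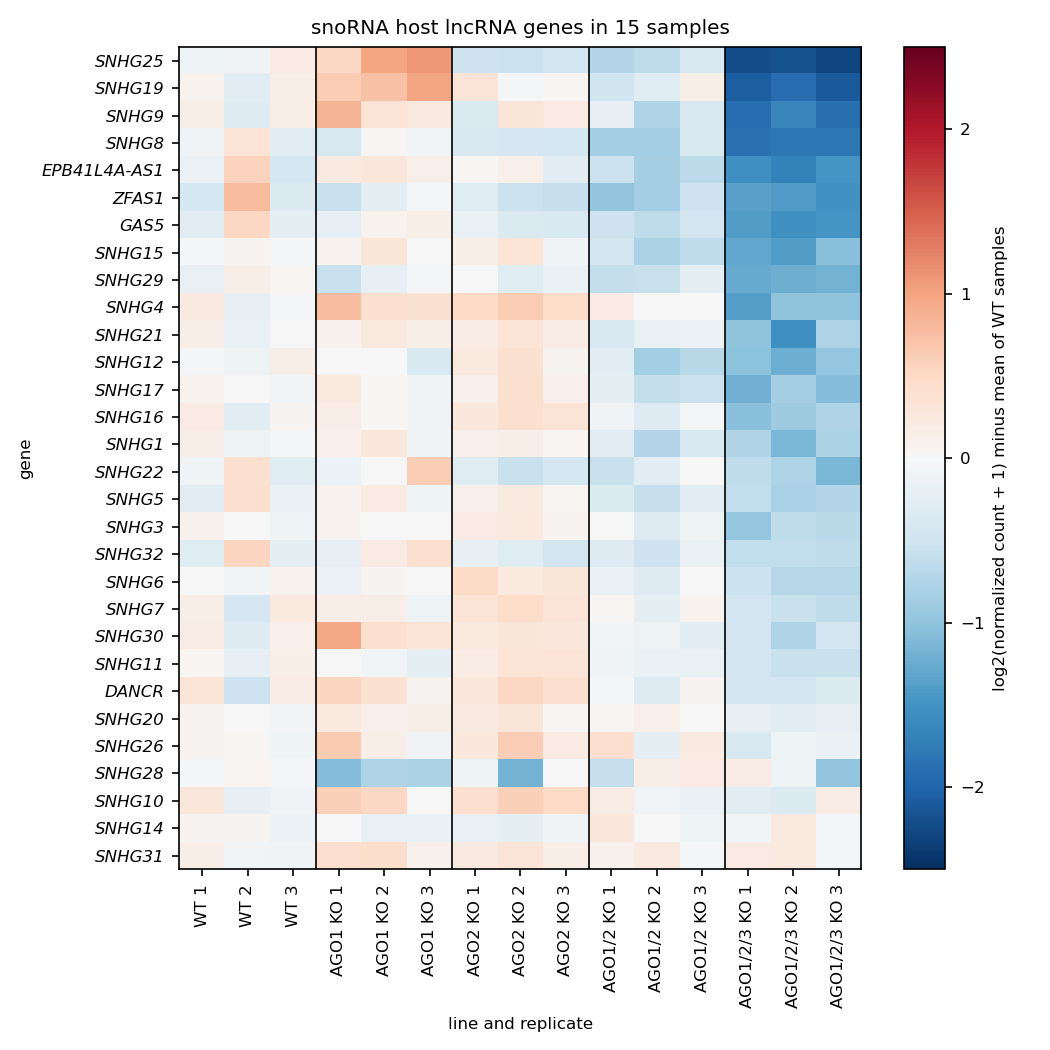
Level of the 30 tested snoRNA host genes in each of the 15 samples, as log2(normalized count + 1) minus the mean of the wild-type samples. Rows are genes, ordered by their change in the triple knockout, and columns are samples grouped by line. The 3 triple knockout columns are blue for the 24 genes called lower, and the double knockout columns are paler.

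The annotated starts of the hosts are shown because a run of pyrimidines there is the feature that several members are known to share with ribosomal protein mRNAs. A start was counted as holding a tract when its first base was C and at least the next 4 bases were C or T, read on the strand of the gene only. By RefSeq, 7 of 28 host genes with a start in the table had such a tract, against 4.07% of 35116 RefSeq starts, and by the Ensembl canonical transcripts of GENCODE v44 4 of 32 did, against 4.22% of 22582 genes. The annotations place many starts at different bases, so that 9 hosts had the tract by either source. For the 8 of them that were tested, the first bases of a transcript with the tract are printed 5′ to 3′ with the tract in capitals, for GAS5 and SNHG29 from GENCODE v44 (GRCh38) and for the others from RefSeq (GRCh38.p14). The positions are chr1:173867960-173867989 (minus strand) for *GAS5*, chr17:16439037-16439060 (plus strand) for *SNHG29*, chr20:49278642-49278671 (plus strand) for *ZFAS1*, chr16:2155329-2155358 (minus strand) for *SNHG19*, chr6:31834916-31834945 (plus strand) for *SNHG32*, chr6:85678704-85678733 (minus strand) for *SNHG5*, chr5:139274101-139274130 (plus strand) for *SNHG4* and chr1:28581844-28581873 (minus strand) for *SNHG12*.
GAS5: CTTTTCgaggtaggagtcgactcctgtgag
SNHG29: CTTTTCattcccgttgttatggag
ZFAS1: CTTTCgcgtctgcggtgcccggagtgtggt
SNHG19: CTTTTCggggtcgagtccgagggggaagag
SNHG32: CTTTTTgcgaagtgggctcgtgggttggca
SNHG5: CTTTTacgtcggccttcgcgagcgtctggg
SNHG4: CCCTTTCCCCTCCggcctctgccggtgctg
SNHG12: CCTTTCTCCCCgccgcattcccggtgtcga
All 8 were lower in the triple knockout (background 19.8%), with a median log2 fold change of -1.19. Of the 22 tested hosts in which no tract was found 16 were lower (background 19.8%), with a median of -0.70, and the difference was not tested. These include *SNHG6*, *SNHG9*, *SNHG15* and *SNHG25*, which had no RefSeq start and were read by GENCODE only. Among the 8, only *SNHG12* and *ZFAS1* had a tract by both annotations. The share of all genes with a tract by either source was not counted. The groups overlapped, since *SNHG8*, without the tract by both sources, had one of the lowest log2 fold changes of all hosts. So did *SNHG25* and *SNHG9*, without the tract by GENCODE and not assessed by RefSeq. A match of letters at an annotated start does not show that transcription begins there in these cells.

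The largest falls were in *SNHG25*, *SNHG19*, *SNHG9* and *SNHG8*. *SNHG25* (ENSG00000266402, chr17:64145937-64146476 on GRCh38), the host of SNORD104, had 493, 510.0 and 625 normalized counts in the wild-type replicates and 115, 119 and 109 in the triple knockout replicates. This is a log2 fold change of -2.25 ± 0.16 (SE) at adjusted p = 3.83e-08, or 4.74-fold lower, by the quasi-likelihood test of edgeR, adjusted by the Benjamini-Hochberg method. The gene stood apart in the other lines too, since *AGO1* knockout samples had 776, 1064 and 1148 normalized counts, all above wild-type. In *AGO2* knockout cells it had 378, 370.3 and 385 and in double knockout cells 326, 347 and 416 normalized counts, all below wild-type. The log2 fold change was 0.87 without AGO1 (adjusted p = 0.00142), -0.52 without AGO2 (adjusted p = 0.0222) and -0.58 in the double knockout (adjusted p = 0.0113) by the same edgeR test. *SNHG25* was thus called in all 4 knockout lines, higher in 1 and lower in 3.

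*SNHG19* (ENSG00000260260, chr16:2154792-2155405), the host of SNORD60, had 517, 401 and 544 normalized counts in wild-type, 748, 805 and 953 in *AGO1* knockout and 114, 129 and 112 in triple knockout samples. It was above all wild-type samples in the single knockout and below all of them in the triple knockout, with log2 fold changes of 0.78 (adjusted p = 0.00868) and -2.04 ± 0.18 (SE, adjusted p = 4.24e-07) by edgeR's test. *SNHG9* (ENSG00000255198, chr16:1964895-1965509), which holds SNORA78 and lies on the same chromosome arm, had 193, 139.7 and 195 counts in wild-type and 45.7, 54.7 and 46.1 in triple knockout samples, a log2 fold change of -1.85 ± 0.24 (SE) at adjusted p = 1.78e-05 in the same edgeR test. *SNHG8* (ENSG00000269893, chr4:118278703-118285316), the host of SNORA24, went from 2497, 3363 and 2213 to 726, 757 and 760.5 normalized counts, a log2 fold change of -1.85 ± 0.16 (SE) at adjusted p = 3.54e-07 by edgeR's test. For *SNHG8* the double knockout lay between the other lines, with 1478, 1467 and 1998 counts and a log2 fold change of -0.71 (adjusted p = 0.00525). None of the 3 genes overlapped between wild-type and triple knockout samples. In GENCODE v44 the exons of their transcripts together cover the whole gene, with the snoRNA inside an exon. Estimated counts could thus be split between snoRNA and host, and these host values are uncertain. The same holds for *SNHG1*, *SNHG15* and *EPB41L4A-AS1*, described below, and SNORA50C lies inside an exon of *SNHG25*.

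**Figure D2:**
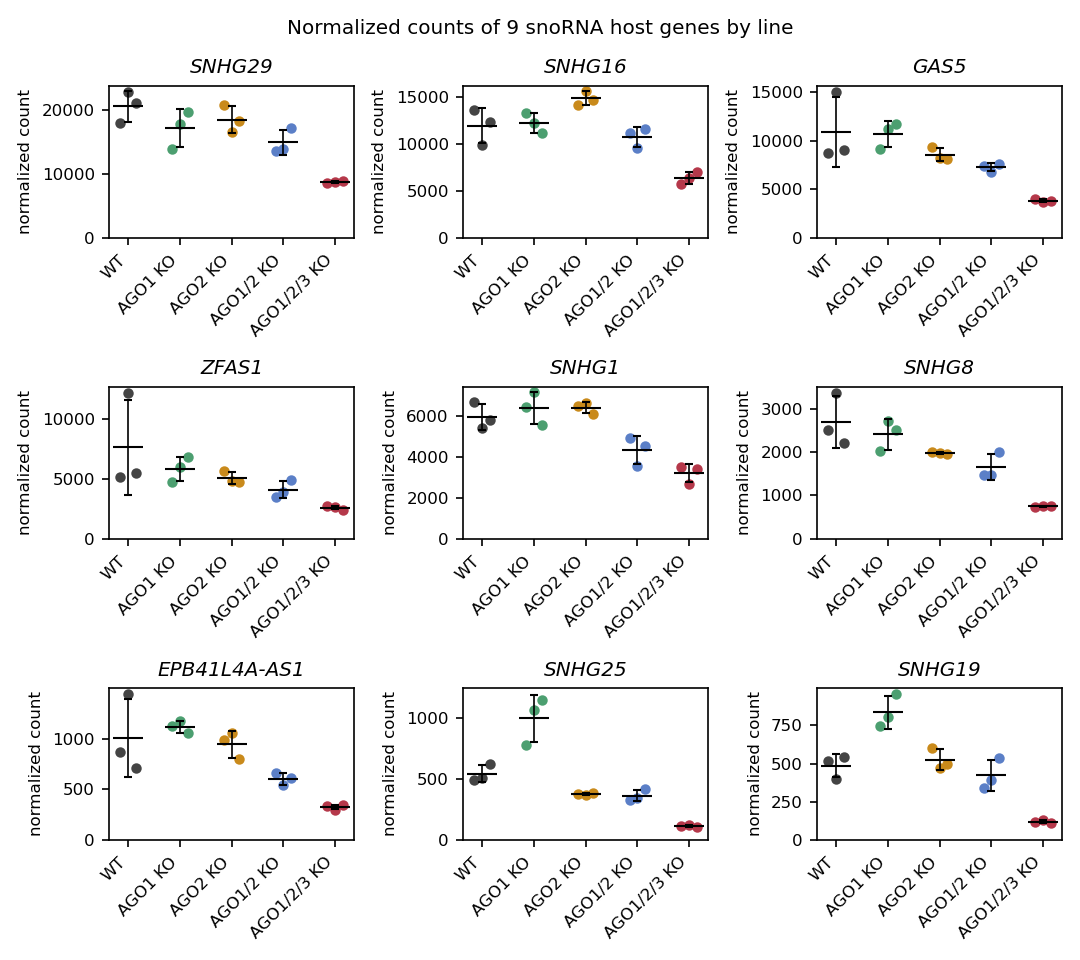
Normalized counts of 9 host genes by line. Points are the 3 replicates of each line, horizontal lines are means and bars are SD. In all 9 panels the triple knockout points lie below the wild-type points, and *SNHG25* and *SNHG19* are highest in *AGO1* knockout cells.

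Among the hosts with the most counts, *SNHG29*, *SNHG16*, *GAS5*, *ZFAS1* and *SNHG1* all fell in the triple knockout. *GAS5* (ENSG00000234741, chr1:173858559-173868882), growth arrest-specific 5, holds 11 snoRNA genes by RefSeq. It had 8683, 15039 and 9008 normalized counts in wild-type, 7354, 6809 and 7605 in double knockout and 3994, 3663 and 3777 in triple knockout samples, with a log2 fold change of -1.52 ± 0.17 (SE) at adjusted p = 5.37e-06 in the triple knockout by the quasi-likelihood test of edgeR, adjusted by the Benjamini-Hochberg method. *ZFAS1* (ENSG00000177410, chr20:49278178-49299600), named for its place antisense to the 5′ end of *ZNFX1*, had 5160.0, 12188 and 5537 counts in wild-type and 2752, 2629 and 2447 in triple knockout samples, a log2 fold change of -1.55 ± 0.26 (SE) at adjusted p = 0.000199 in the same edgeR test. Wild-type replicate 2 was the highest of the 15 samples for both genes. Without it the log2 fold changes in the triple knockout were -1.24 (adjusted p = 6.91e-07) and -1.06 (adjusted p = 4.74e-05) by edgeR's test, and in the double knockout both calls were lost, at -0.30 (adjusted p = 0.0913) and -0.39 (adjusted p = 0.0967).

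*SNHG29* (ENSG00000175061, chr17:16438767-16480249), the host of SNORD49A, SNORD49B and SNORD65, had 17899.8, 22736 and 21033 normalized counts in wild-type and 8531, 8749 and 8957 in triple knockout samples, a log2 fold change of -1.23 ± 0.14 (SE) at adjusted p = 5.34e-06 by edgeR's test. Its double knockout samples lay between them, at 13622, 13955 and 17161, and were called lower (-0.46, adjusted p = 0.0315), a call lost without wild-type replicate 2 (adjusted p = 0.0845). *SNHG16* (ENSG00000163597, chr17:76557727-76670985), which holds the SNORD1 genes, had 13662, 9936 and 12426 counts in wild-type and 5745, 6436 and 7047 in triple knockout samples, with a log2 fold change of -0.91 ± 0.13 (SE) at adjusted p = 3.61e-05 by the same edgeR test. In *AGO2* knockout cells all 3 samples of *SNHG16* were above wild-type, at 14237, 15729 and 14784, and the log2 fold change of 0.31 was not called (adjusted p = 0.0874). *SNHG1* (ENSG00000255717, chr11:62851978-62855953), the host of SNORD22 and several other C/D box snoRNAs, went from 6685, 5411 and 5806 to 3519, 2700.3 and 3442, a log2 fold change of -0.89 ± 0.14 (SE) at adjusted p = 0.000114 in the triple knockout by edgeR's test.

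*EPB41L4A-AS1* (ENSG00000224032, chr5:112160526-112164818), the host of SNORA13, had 868, 1442 and 709 normalized counts in wild-type, 663, 543 and 607 in double and 331, 298 and 344 in triple knockout samples. Its log2 fold change of -1.63 ± 0.20 (SE) at adjusted p = 1.31e-05 in the triple knockout by edgeR's test was -1.31 without wild-type replicate 2, and the call in the double knockout (-0.74, adjusted p = 0.0181) was lost without that sample (-0.40, adjusted p = 0.0703). *SNHG15* (ENSG00000232956, chr7:44983019-44986961), the host of SNORA9, had 1044, 1124 and 1055 in wild-type and 434, 408 and 519.7 in triple knockout samples. Wild-type values of *SNHG15* were close together, and its log2 fold changes of -0.62 in the double and -1.24 in the triple knockout had adjusted p = 0.00415 and 3.06e-06 by edgeR's test. *SNHG12*, with 1721, 1606 and 1939 counts in wild-type and 855, 749 and 893 in triple knockout samples, fell by 1.08 on the log2 scale, and *SNHG17*, with 1025, 956 and 918 and 418, 542 and 453, fell by 1.04. Both were also called lower in the double knockout (-0.60 and -0.45).

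The hosts can be ordered by the kind of snoRNA they hold. Of all genes tested, 19.8% were called lower in the triple knockout, the background of the counts that follow. Of 11 hosts with only C/D box snoRNAs, 9 were lower there (median log2 fold change -0.75). Of 11 with only H/ACA box snoRNAs 10 were lower (median -1.04). *GAS5*, *SNHG12* and *SNHG25*, which hold both kinds, were all lower. Of 4 hosts of small Cajal body RNAs, *SNHG21* (-1.09) and *SNHG22* (-0.86) were lower, while *SNHG10* (-0.14) and *SNHG20* (-0.23) were not called. GENCODE v44 places no snoRNA inside *SNHG28*, which was not called. The difference between these kinds was not tested.

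The remaining hosts called lower in the triple knockout had log2 fold changes from -1.14 to -0.48. *SNHG4*, the host of SNORA74A and SNORA74D, went from 713 ± 109 to 324 ± 46.4 normalized counts (SD, n = 3, log2 fold change -1.14), and *SNHG21* from 79.8 ± 9.29 to 37.3 ± 9.80. *SNHG22*, *SNHG5*, *SNHG3* and *SNHG32* had log2 fold changes of -0.86, -0.75, -0.75 and -0.67. *SNHG6* (-0.66), *SNHG7* (-0.59), *SNHG30* (-0.58) and *SNHG11* (-0.54) followed, and *DANCR*, named for antagonizing differentiation, had the smallest called fall at -0.48 (adjusted p = 0.0479 by edgeR's test). *DANCR* was the only called member whose wild-type and triple knockout samples overlapped, with 1399.7, 779 and 1268 against 794, 804 and 879 normalized counts. The calls of *DANCR* and *SNHG30* were lost when some single replicates were left out. *SNHG3* shares exons on the same strand with *RCC1*, *SNHG4* with *MATR3*, *SNHG5* with *PKMP3*, *SNHG14* with *SNRPN*, *SNHG20* with *SEC14L1*, *SNHG28* with *VSIG8* and *DANCR* with LINC01618, while *SNHG21*, *SNHG32* and *ZFAS1* overlap genes listed without a symbol, so that estimated counts could be split between them and these members are uncertain. *RCC1* (-0.73) and *MATR3* (-0.84) were lower too.

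Members that were not called in the triple knockout were *SNHG10*, *SNHG14*, *SNHG20*, *SNHG26*, *SNHG28* and *SNHG31*, with log2 fold changes from -0.23 to 0.13. *SNHG20*, with 398, 386 and 363 normalized counts in wild-type and 334, 316 and 331 in triple knockout samples, did not overlap between the lines, and its adjusted p was 0.0774 by edgeR's test. *SNHG26*, with 425, 415 and 378 and 311, 376 and 361, did not overlap either and had an adjusted p of 0.392 by the same edgeR test. *SNHG14*, the long host of the SNORD115 and SNORD116 clusters in the Prader-Willi region, had 122 ± 10.0 in wild-type and 125 ± 16.3 in triple knockout cells (SD, n = 3). Over all genes the typical (median) SE of the comparison was 0.20 on the log2 scale. It differed between these genes, as between triple and *AGO1* knockout cells, with 0.097 for *SNHG20* and 0.37 for *SNHG28*. Small differences could thus be missed with 3 replicates per line, at a size that differs by gene.

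**Figure D3:**
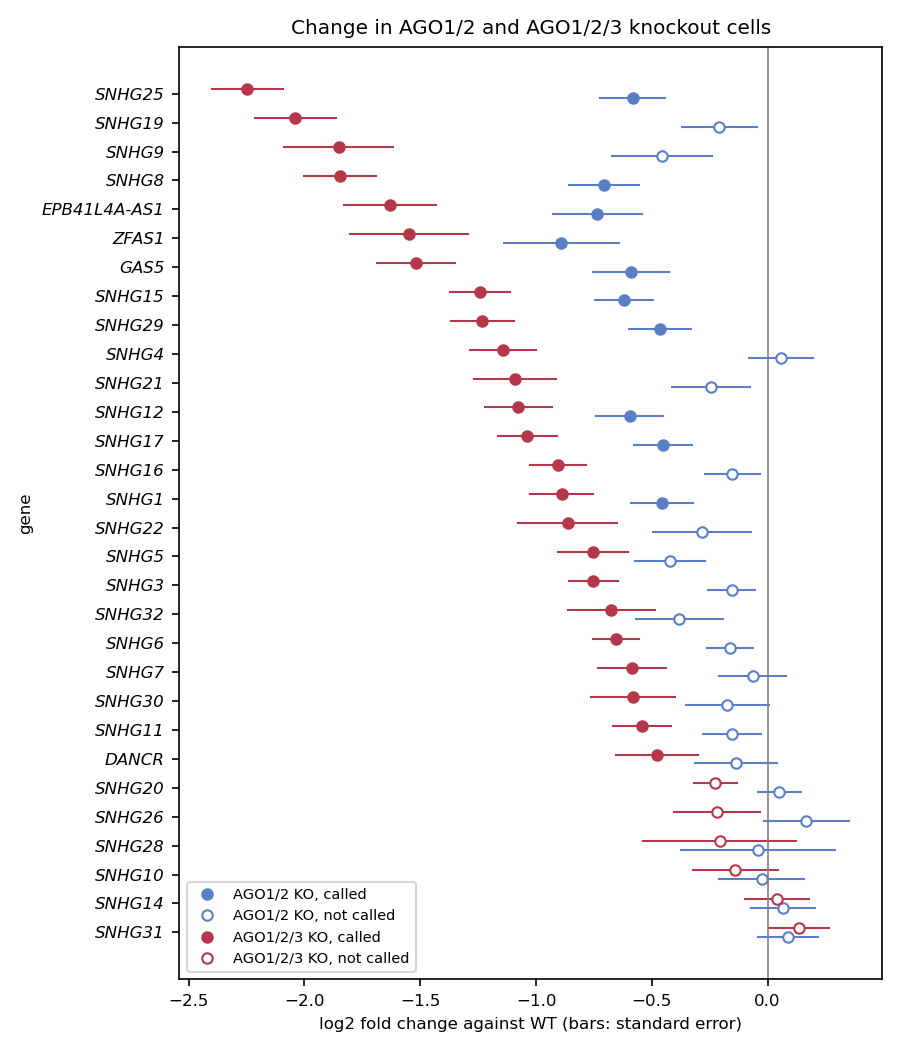
Log2 fold change against wild-type cells of the 30 tested host genes in double (blue) and triple (red) knockout cells, with bars of 1 standard error. Filled points are called at an adjusted p of 0.05 or less. The 24 filled red points run from -2.25 to -0.48, and 10 blue points are filled, all left of 0.

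Counted by replicates, all triple knockout samples lay below all wild-type samples for 25 of 30 host genes (background 23.8%), and for 0 they lay above (background 26.3%). In the double knockout, 10 lay below (background 14.3%) and 0 above (background 15.5%). For 24 host genes the triple knockout samples lay below all 12 other samples (background 9.37%). A fall of at least 2-fold that was also called was seen for 13 host genes (background 8.97%). The triple knockout had the lowest mean of the 5 lines for 27 of 30 host genes, and the means ran from wild-type over double to triple knockout in falling order for 25. For 10 host genes the call was lower in both the double and the triple knockout. Shares over all genes were not counted for the lowest mean, the falling order or the calls in both lines. With 3 replicates against 3, no exact permutation test (two-sided) can go below p = 0.1. The tests given here rest on a spread that edgeR estimates for each gene from all 15 samples, drawing also on the other genes.

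The triple knockout was also compared with the double knockout, which differs from it by the loss of AGO3 and by being another line. Of the 30 host genes, 18 were lower (background 10.0%) and 0 higher (background 11.9%) by the quasi-likelihood test of edgeR, adjusted by the Benjamini-Hochberg method, with a median of -0.55 against -0.01 over all genes tested. *SNHG19* (-1.83), *SNHG25* (-1.66), *SNHG9* (-1.40), *SNHG4* (-1.20) and *SNHG8* (-1.14) had the largest differences. For 25 host genes all triple knockout samples lay below all double knockout samples (background 19.6%). *GAS5* differed by -0.93 (adjusted p = 0.00109 by edgeR's test), and *ZFAS1*, at -0.66, was not called (adjusted p = 0.0789). Without wild-type replicate 2, which belongs to neither line, *ZFAS1* was called at -0.67 (adjusted p = 0.00196).

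In *AGO1* knockout cells the called host genes were *SNHG25* (0.87), *SNHG19* (0.78) and *SNHG4* (0.52), all higher. *SNHG4* had 832, 618 and 691 normalized counts in wild-type and 1215, 941 and 919 in *AGO1* knockout samples, which did not overlap, with adjusted p = 0.032 by edgeR's test. Without wild-type replicate 2 the call was lost (log2 fold change 0.43, adjusted p = 0.103), and *EPB41L4A-AS1* was called higher (0.50, adjusted p = 0.0402). All *AGO1* knockout samples lay above wild-type for 6 host genes (background 10.2%) and below for 1 (background 12.9%). In *AGO2* knockout cells *SNHG4* (0.52) and *SNHG6* (0.35) were higher and *SNHG25* (-0.52) was lower. *SNHG6*, the host of SNORD87 on chromosome 8, had 3349.5, 3208 and 3562 counts in wild-type and 4716, 3987 and 4153 in *AGO2* knockout samples (adjusted p = 0.0319 by edgeR's test). Without wild-type replicate 2, *SNHG4* (0.40, adjusted p = 0.115) and *SNHG6* (0.29, adjusted p = 0.129) were no longer called. For 11 host genes all *AGO2* knockout samples lay above wild-type (background 18.5%), and for 3 they lay below (background 18.6%).

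Compared with each other in the same fit, the single knockout lines differed in 4 host genes, 2 higher (background 9.67%) and 2 lower (background 8.73%), a share of the host genes below that of all genes. *SNHG25* (-1.40) and *SNHG19* (-0.67) were lower in *AGO2* than in *AGO1* knockout cells, and *SNHG11* (0.40) and *SNHG6* (0.37) were higher. The triple knockout was lower than *AGO1* knockout cells in 27 host genes (background 18.9%) and lower than *AGO2* knockout cells in 25 (background 18.9%), with 0 higher in either case (background 21.8% and 21.3%). The double knockout was lower than *AGO1* knockout cells in 12 (background 7.95%) and than *AGO2* knockout cells in 11 (background 11.1%), again with 0 higher (background 11.5% and 12.8%). The wild-type samples enter these comparisons only through normalization and the shared spread.

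The genes around each host were measured to see whether whole regions moved. Within 5 Mb on either side, the 23 to 223 genes averaging 1 CPM or more had medians from -0.20 to 0.42 in the triple knockout. Of all 30 hosts 29 lay below the median of their own neighbours. The smallest called fall was -0.48, under every neighbour median, so that the 24 host genes called lower could not lie above theirs. *SNHG25* was lower than every one of its 92 neighbours (median 0.12). *SNHG6* had a neighbour median of 0.42 against its own -0.66.

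The snoRNAs inside the hosts were listed as genes of their own. GENCODE v44 places 140 snoRNA and small Cajal body RNA genes inside the members on the same strand, 84 of them in *SNHG14*, and 130 were listed in the files. It places none inside *GAS5*, so that the 11 snoRNAs RefSeq gives for *GAS5* are not among them. Of the 130, 75 had 0 counts in every sample, and 33, from 19 hosts, passed the filter. In the triple knockout 10 of the 33 were lower (background 19.8%) and 4 higher (background 20.3%), and in *AGO1* knockout cells 13 rose (background 3.17%) and 0 fell (background 5.5%) by edgeR's test. The double knockout had 8 higher (background 8.37%) and 1 lower (background 8.35%), and the 8 were 5 without wild-type replicate 2 (background 6.82%). *AGO2* knockout cells had 6 higher (background 8.55%) and 5 lower (background 10.8%), and the 5 were 8 with total counts (background 15.7%). Against the double knockout, 14 were lower in the triple knockout (background 10.0%) and 0 higher (background 11.9%). Of the 33 snoRNAs, 23 lie inside an exon of some host transcript, SNORD60 and SNORA61 among them, so that estimated counts could be split between snoRNA and host and these values are uncertain.

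SNORD104, which lies inside *SNHG25*, had 287, 292 and 291 normalized counts in wild-type, 377, 377 and 343 in *AGO1* knockout and 110.1, 90.7 and 82.1 in triple knockout samples, with a log2 fold change of -1.61 in the last beside -2.25 for its host. SNORD60 fell with its host *SNHG19* (-1.37 beside -2.04). SNORA61, from *SNHG12*, had 25.0, 52.9 and 32.0 counts in wild-type and 143, 177 and 137 in triple knockout samples, a log2 fold change of 2.05 where its host had -1.08. SNORA74A rose by 1.43 while its host *SNHG4* fell by 1.14 on the log2 scale. Of the 33 tested, 30 came from hosts that were lower, namely all 10 snoRNAs called lower, 3 of the 4 called higher and 17 of the 19 not called. In *AGO1* knockout cells the log2 fold changes of SNORA61 and SNORA74A were 3.41 and 3.16, both called higher.

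**Figure D4:**
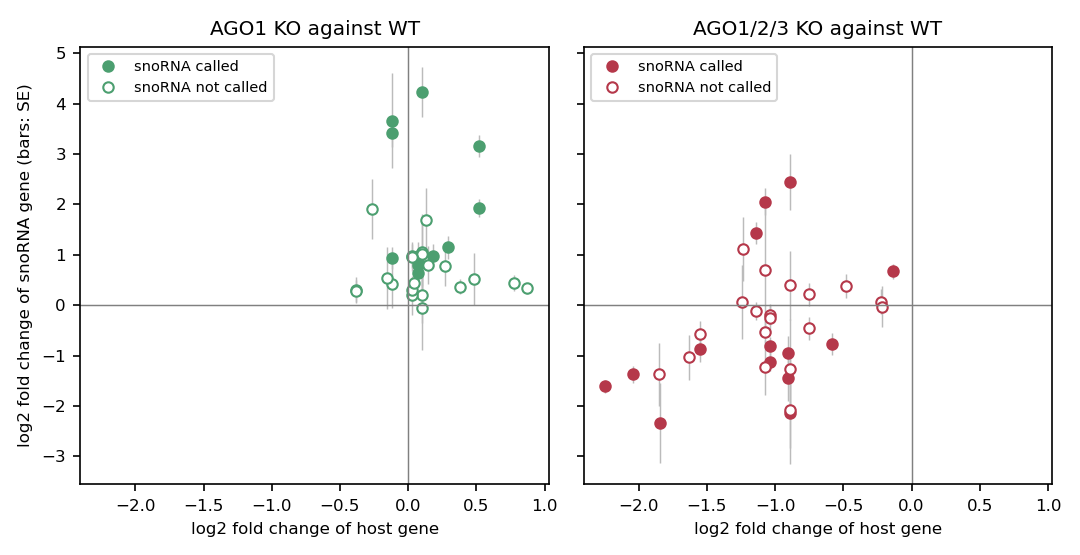
Log2 fold change of 33 tested snoRNA genes (vertical, with bars of 1 standard error) against that of their host gene (horizontal), in *AGO1* knockout cells (left) and triple knockout cells (right). Filled points are snoRNAs called at an adjusted p of 0.05 or less. On the left all 13 filled points lie above 0, and on the right 10 lie below 0 and 4 above.

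All snoRNA and small Cajal body RNA genes together took 0.311% to 0.408% of the counts in wild-type samples, 0.649% to 0.754% in triple and 1.12% to 1.30% in double knockout samples, 1.03% to 1.34% where *AGO2* and 1.28% to 2.20% where *AGO1* alone was knocked out. All knockout lines were thus above wild-type in this share, and the levels of RNAs this short were not checked against a method made for them. Of the 208 such genes tested, 39 were higher (background 20.3%) and 33 lower (background 19.8%) in the triple knockout by edgeR's test. Where *AGO1* alone was lost, 79 were higher (background 3.17%) and 1 lower (background 5.5%). In the double knockout 48 were higher (background 8.37%) and 10 lower (background 8.35%). Where *AGO2* alone was lost, 33 were higher (background 8.55%) and 26 lower (background 10.8%). Called higher in the double knockout were 23.1% of the 208 and 24.2% of the hosted snoRNAs tested. These shares were 38.0% and 39.4% in *AGO1* and 15.9% and 18.2% in *AGO2* knockout cells. In the triple knockout 18.8% and 12.1% were higher, and 15.9% and 30.3% lower. The part of these differences in the values of the hosted snoRNAs was not tested. SNORD22 is the symbol of 2 genes at separate places in *SNHG1*. They moved in opposite directions in *AGO2* knockout cells, so that the symbol has no single value. SNORA16A and SNORA17B are each listed under 2 identifiers at overlapping positions. Each identifier was counted as a gene, so that their values are uncertain.

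Other genes tied to snoRNA hosts were followed as lists. Of 17 genes for snoRNA-protein particles and their assembly, 11 were lower (background 19.8%) and 0 higher (background 20.3%) in the triple knockout, with a median log2 fold change of -0.42. *FBL*, the fibrillarin methyltransferase of C/D box particles (-1.28), *SNU13* (-0.81), which binds the box C/D fold, and *NHP2* of H/ACA particles (-0.77) had the largest falls. In *AGO2* knockout cells 6 of the 17 were higher (background 8.55%) and 0 lower (background 10.8%), but 1 was higher without wild-type replicate 2 (background 2.14%) and 2 with total counts (background 3.21%). Of 23 protein-coding genes that carry snoRNAs in their introns, 16 were lower and 1, *NAP1L4*, was higher in the triple knockout, with a median of -0.41, against the same background of 19.8% lower and 20.3% higher. *EEF1B2* (-1.06), *PPAN* (-0.97) and *HSPA9* (-0.90) fell most in that list.

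Of 13 translation factors and related genes whose mRNAs begin with an oligopyrimidine tract, 12 were lower (background 19.8%) and 0 higher (background 20.3%) in the triple knockout, with a median of -0.85. *EIF3E* (-1.37), *PABPC1*, the poly(A)-binding protein (-1.10), and *EIF3H* (-1.09) fell most, and *EIF3F* (-0.20) was not called. The median of this list was close to that of the host genes, and no test compared them. Of 15 genes for nonsense-mediated decay, the pathway known to degrade several host RNAs, 3 were higher (background 20.3%) and 2 lower (background 19.8%), with a median of -0.04, and 0 were higher with total counts (background 15.1%). *MAGOHB* (0.58), *SMG6* (0.31) and *RBM8A* (0.28) were the higher ones, and *SMG5* (-0.51) and *UPF2* (-0.44) the lower ones. *UPF1*, the helicase of the pathway, was not called (0.16). Some genes, *EEF1B2* and *NOP56* among them, stand in more than 1 list.

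**Figure D5:**
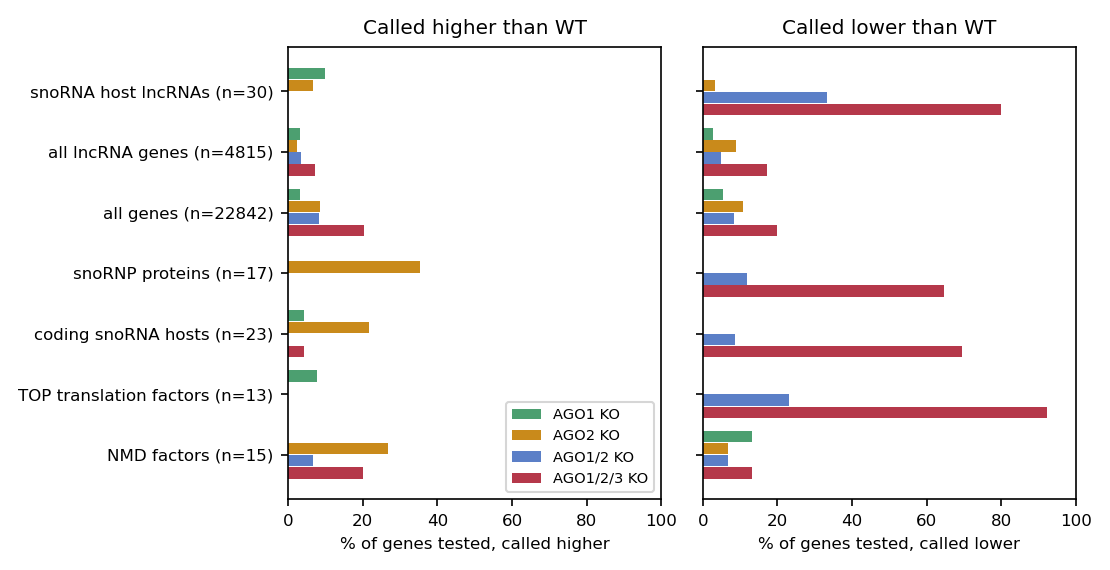
Share of tested genes called higher (left) and lower (right) than in wild-type cells, for the host genes and other groups, in percent. Bars are the 4 knockout lines. For the host genes 80.0% were called lower in the triple knockout, against 17.2% of all lncRNA genes and 19.8% of all genes. The groups were not matched by count level.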

How the data were processed

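RNAseq of 15 HCT116 samples was used, 3 biological replicates for each of 5 lines. Per the paper's methods, ribosomal RNA was depleted, stranded total RNA libraries were sequenced in pairs, and reads were filtered, aligned to hg38 with STAR and quantified with Salmon. The authors deposited expected counts (estimated counts per gene, not normalized), 1 file per sample, of which 30.8% to 33.8% were not whole numbers. The submitters' processing notes give STAR 2.5.3a and Salmon 0.11.0, and the paper's methods name other versions. The annotation release used there was not checked.

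Estimated counts were rounded, filtered with filterByExpr and normalized by TMM, and 1 model with a mean per line was fitted to all 15 samples with edgeR 4.0.16 (R 4.3.3). Each knockout was compared with wild type, and the triple with the double knockout, by the quasi-likelihood test, with Benjamini-Hochberg adjustment over 22842 genes and a threshold of 0.05. Normalized counts are at the mean effective library size. Total counts were 27709971 to 45271146 per sample, and the biological coefficient of variation was 0.152. P-values measure the spread between these replicates of a line.

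Members and lists were chosen with earlier results of these data known. Described in full were members called in a knockout line or with a mean of at least 10 CPM. Comparisons between knockout lines other than triple against double were added after the data were seen. Genes, positions and snoRNAs inside hosts were taken from GENCODE v44 (57167 of 57875 listed genes matched) and RefSeq. No pair of files was identical. The fit was tested on simulated data. Alternatives were DESeq2 1.42.0 (size factors and Wald test), total counts, no filter, only the 6 samples compared, the replicate block and each sample left out. The 8 eCLIP samples were not analysed here. Python 3.11.15, pandas 2.3.3 and matplotlib 3.10.9 were used for summaries and figures.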

Additional observations from a re-analysis of the deposited data

How the results depend on the processing

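The 24 host genes lower in the triple knockout (background 19.8%) numbered 25 with total counts (background 26.1%). They numbered 24 with DESeq2's size factors (background 20.2%), DESeq2's Wald test or no filter on low counts. With only the 6 samples compared they numbered 23, and *DANCR* was lost. Leaving out each sample in turn gave 22 to 24, with *DANCR* and *SNHG30* lost in the lowest. Against the double knockout the 18 lower genes (background 10.0%) ranged from 14 (without triple knockout replicate 2) to 22 (without wild-type replicate 2, background 12.3%). For alternatives given in this section without a background, that share is not given.

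The other counts moved more, and the cause was not tested. The 10 lower genes in the double knockout were 3 with only the 6 samples compared, and 3 to 10 with a sample left out. They were 3 without double knockout replicate 2, 5 without replicate 3 and 6 without wild-type replicate 2 (background 7.72%). The 2 higher genes in *AGO2* knockout cells were 0 with total counts (background 3.21%) and with only the 6 samples compared, and 0 to 3 with a sample left out. The 1 lower gene was 2 with total counts (background 15.7%) and with DESeq2's Wald test, and 0 to 3 with a sample left out. The 3 higher genes in *AGO1* knockout cells were 2 to 4, with 0 lower in each fit. No called gene changed direction under an alternative.

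With the replicate number as a block, 23 host genes were lower in the triple knockout and 10 in the double knockout. Replicates with the same number did not deviate together on average, with a mean correlation of -0.0067 between lines (30 pairs, -0.218 to 0.291). This mean cannot show whether some lines or genes are paired, and the main fit did not pair samples by number. Precision is limited by 3 replicates per line and, for snoRNAs, by low counts.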
